A study of Homo sapiens with 12 samples.

Results

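Lipid uptake and cholesterol efflux in U937 cells were followed through 8 genes: the scavenger receptor CD36, the nuclear receptors PPARG and NR1H3, the cholesterol exporters ABCA1 and ABCG1, the lipid droplet coat protein PLIN2, and the fatty acid binding proteins FABP4 and FABP5. They were chosen by name, with earlier results of these data known. They are 8 of the 19775 genes that a probe set of the array names alone, and 20 of 41097 such probe sets belong to them. A probe set is a group of short probes read as 1 level. For each gene the probe set brightest on average over the 12 arrays stands for it, and its other probe sets are given beside it. The study asked how EVI1, a transcription factor made by the MECOM locus, alters what all-trans retinoic acid (ATRA) does to myeloid cells. U937 is an established leukaemia cell line of human origin that resembles immature monocytes.

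The 4 groups, of 3 arrays each, were EVI1-transduced cells given 1 µM ATRA for 24 h (EVI1 ATRA), empty-vector cells given the same ATRA (vector ATRA), EVI1-transduced cells given the solvent DMSO for 24 h (EVI1 DMSO) and empty-vector cells given DMSO (vector DMSO). All were U937 cells that had been transduced and grown in culture medium with serum. The promoter of the EVI1 vector, and whether the transduced cells were a clone or a pool, are not given in the sources used here. The series calls the replicates biological without saying what separates them. The 5 probe sets of MECOM lay between 2.61 and 3.6 on the log2 scale on all 12 arrays and none reached the signal limit for a test (a level of 5 on at least 3 arrays), so the arrays do not check the EVI1 label and the groups are named by their labels. Of 8 myeloid markers the array names alone, 7 passed the signal limit, the brightest being lysozyme (LYZ, 12.35 to 13.65) and neutrophil elastase (ELANE, 11.88 to 13.13). PTPRC (10.03 to 11.62) and CD4 (7.63 to 8.22) were lower. SPI1 (6.07 to 7.11), CSF1R (5.59 to 6.79) and MPO (4.8 to 5.97) were nearer the limit, and FCGR1A (3.21 to 3.8) was under it. Arrays of a group correlated at 0.987 to 0.995 over all probe sets.

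As background, CD36 binds oxidised lipoprotein and long-chain fatty acids at the surface of macrophages. PPARG binds fatty acid ligands together with a retinoid X receptor and is a known activator of CD36, FABP4 and NR1H3 in macrophages. NR1H3 (LXR alpha) senses oxysterols, again with a retinoid X receptor, and is known to activate ABCA1 and ABCG1, which hand cholesterol to apolipoprotein A-I and to high-density lipoprotein. PLIN2 coats the droplets in which the imported lipid is stored, and the FABP proteins carry fatty acids inside the cell.

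In these cells CD36 was the member with the largest change under ATRA, and it rose in both cell types, 21.3-fold in EVI1 cells and 14.0-fold in vector cells on its brightest probe set. NR1H3 rose 3.16-fold and PLIN2 1.75-fold with ATRA in EVI1 cells, and neither passed the test in vector cells, though both did with the replicate number as a block in the fit. Under ATRA, NR1H3 was 2.18-fold and PPARG 1.37-fold higher in EVI1 cells than in vector cells. ABCG1, FABP4 and FABP5 passed no test in the fit without the replicate number, and ABCA1 did not pass the signal limit. With the replicate block, FABP4 was called higher and ABCG1 and FABP5 lower in EVI1 than in vector cells under ATRA. FABP4 was then also called higher with ATRA in EVI1 cells. No member's ATRA effect was shown to differ between EVI1 and vector cells. Differences are on the log2 scale of the deposited values, where 1 unit is a 2-fold change, and a gene is said to be called, risen or fallen at an adjusted p under 0.05 over all 14080 genes tested.

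The promoters of CD36, NR1H3, PLIN2 and ABCA1 are shown because the first 3 are the members that rose with ATRA, and ABCA1 carries the known LXR element that links NR1H3 to efflux. PPARs, LXRs, retinoic acid receptors and retinoid X receptors all bind sites built on the letters AGGTCA, and its core GGTCA (or TGACC on the other strand) was searched for in the 300 bases around each gene's start in the RefSeq table of GRCh38.p14. All 4 of these genes had windows in that table, and where a gene has several starts the window with the most cores was taken. The windows are chr7:80623842-80624141 on the plus strand for CD36, chr11:47257746-47258045 on the plus strand for NR1H3, chr9:19127443-19127742 on the minus strand for PLIN2, and chr9:104928106-104928405 on the minus strand for ABCA1. Capitals mark the core, and in ABCA1 the whole LXR element, a pair of such sites on 1 strand, read here on its other strand.
CD36: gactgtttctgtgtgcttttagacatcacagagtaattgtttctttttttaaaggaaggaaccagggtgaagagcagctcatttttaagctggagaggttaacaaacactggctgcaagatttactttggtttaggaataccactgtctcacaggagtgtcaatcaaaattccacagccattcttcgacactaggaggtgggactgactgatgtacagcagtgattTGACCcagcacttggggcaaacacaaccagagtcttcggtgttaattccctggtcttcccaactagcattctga
NR1H3: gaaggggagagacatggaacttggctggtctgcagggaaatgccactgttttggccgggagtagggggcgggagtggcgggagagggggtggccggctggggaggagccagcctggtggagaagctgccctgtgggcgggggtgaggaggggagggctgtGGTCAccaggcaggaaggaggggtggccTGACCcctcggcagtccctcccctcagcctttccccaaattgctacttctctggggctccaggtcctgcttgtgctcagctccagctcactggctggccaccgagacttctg
PLIN2: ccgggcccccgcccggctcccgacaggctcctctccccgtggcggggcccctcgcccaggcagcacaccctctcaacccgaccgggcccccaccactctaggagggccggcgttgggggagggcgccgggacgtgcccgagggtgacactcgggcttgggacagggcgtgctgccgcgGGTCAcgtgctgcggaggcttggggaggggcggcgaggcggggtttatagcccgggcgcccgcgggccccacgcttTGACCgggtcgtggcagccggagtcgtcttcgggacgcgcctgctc
ABCA1: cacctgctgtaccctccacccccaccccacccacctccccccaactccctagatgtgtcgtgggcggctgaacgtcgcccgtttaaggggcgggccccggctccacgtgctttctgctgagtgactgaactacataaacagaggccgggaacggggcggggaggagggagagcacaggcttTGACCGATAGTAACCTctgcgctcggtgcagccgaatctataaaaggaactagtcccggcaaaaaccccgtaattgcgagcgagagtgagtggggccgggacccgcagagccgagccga

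CD36 held 1 core in 1 of its 6 windows, NR1H3 held 1 or more in 2 of 4, PLIN2 and ABCA1 each in their single window, and PPARG in 4 of 6. The core was found on either strand in 37.4% of all 35116 windows of this length. The longer AGGTCA was found in 13.8% of windows. It was in 1 of 4 windows of NR1H3, in 3 of 6 of PPARG and in none of CD36, PLIN2 and ABCA1. None of the 4 windows shown holds it. The LXR element of ABCA1 was found in 11 windows, or 0.0313%, and in none of the windows of CD36, NR1H3, PLIN2 and PPARG. A match describes the letters and is not evidence that a receptor was bound.

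CD36, the uptake receptor, had log2 levels of 9.63, 10.98 and 11.54 in EVI1 ATRA, against 5.17, 5.55 and 8.20 in EVI1 DMSO (replicates 1, 2 and 3). In vector ATRA the levels were 9.50, 10.90 and 10.13, against 5.72, 6.54 and 6.85 in vector DMSO. All 6 ATRA arrays lay above all 6 DMSO arrays, and EVI1 DMSO replicate 3 stood highest among the DMSO arrays. The ATRA effect was 4.41 ± 0.72 (SE) in EVI1 cells (limma adjusted p = 0.00289, or 1.110e-04 with the replicate block). In vector cells it was 3.81 ± 0.72 (limma adjusted p = 0.0178, or 7.313e-04 with the block). By replicate number the effect was 4.46, 5.43 and 3.34 in EVI1 cells and 3.78, 4.36 and 3.28 in vector cells. The rise therefore stood in every replicate pair of both cell types. Without EVI1 DMSO replicate 3, the effect in EVI1 cells was 5.36. The call in vector cells was lost when vector ATRA replicate 2 or 3, or vector DMSO replicate 1 or 2, was left out (adjusted p = 0.0872, 0.0618, 0.0922 and 0.0709), and when all number 1 arrays were (0.0613). With the mean of all 5 CD36 probe sets, of which 2 stayed near or below the signal limit, the effect was 2.98 (7.88-fold) in EVI1 cells and 2.48 (5.58-fold) in vector cells, both called.

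**Figure D1:**
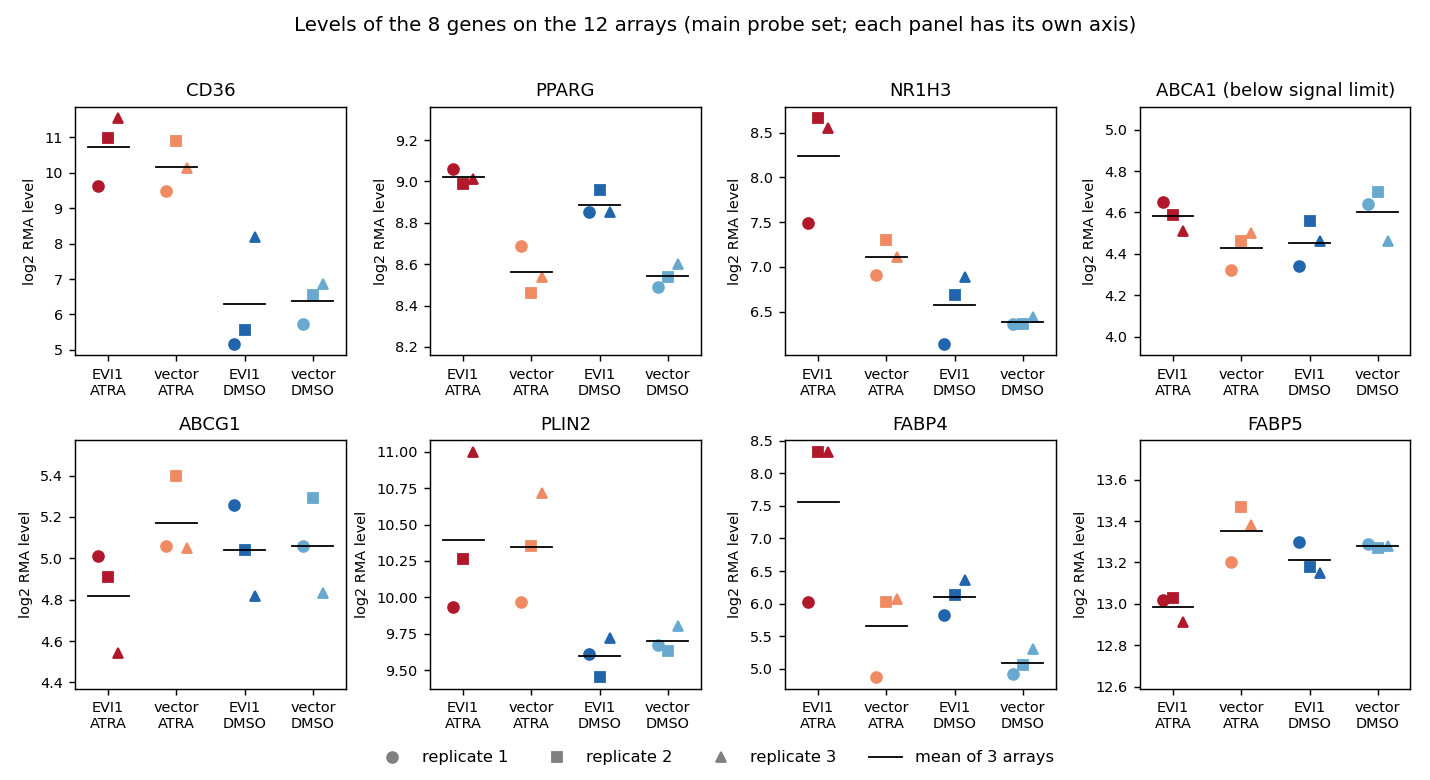
Log2 level of the representative probe set of each of the 8 genes (y axis) in EVI1 ATRA, vector ATRA, EVI1 DMSO and vector DMSO, with 1 symbol per array and a line at the mean of 3 arrays. The CD36 points of both ATRA groups lie at 9.50 or above and those of both DMSO groups at 8.20 or below, and the 6 PPARG points of EVI1 cells lie above the 6 of vector cells.

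Between cell types CD36 did not pass the test. Under ATRA it averaged 10.72 ± 0.98 in EVI1 cells and 10.18 ± 0.70 in vector cells (SD, n = 3 each). The difference was 0.54 ± 0.72 with a 95% interval of -1.02 to 2.10, which allows EVI1 cells to hold more or less CD36 RNA. Under DMSO the means were 6.31 ± 1.65 in EVI1 cells and 6.37 ± 0.58 in vector cells, and the difference was -0.06 ± 0.72 (95% interval -1.63 to 1.5). It was -1.01 without EVI1 DMSO replicate 3. The groups overlapped in both comparisons. From bulk RNA, more cells with CD36 and more CD36 RNA per cell cannot be told apart.

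Of the 5 CD36 probe sets, given here by their identifiers, 3 passed the signal limit and carried this pattern. Besides the representative 206488_s_at, 228766_at had 9.73, 11.07 and 11.79 in EVI1 ATRA against 3.98, 4.74 and 8.08 in EVI1 DMSO, and 9.61, 10.99 and 10.36 in vector ATRA against 5.32, 6.24 and 6.72 in vector DMSO. The probe set 209555_s_at had 9.08, 10.20 and 11 in EVI1 ATRA against 3.72, 4.59 and 7.37 in EVI1 DMSO, and 8.93, 10.20 and 9.40 in vector ATRA against 4.74, 5.21 and 5.96 in vector DMSO. In every one of the 3, the same DMSO array of EVI1 cells stood above the other DMSO arrays. Fitted over 26235 probe sets, of which 11.7% were called in EVI1 cells and 2.29% in vector cells, the ATRA effect of the 3 ranged from 4.41 to 5.26 in EVI1 cells and from 3.81 to 4.23 in vector cells, and all 6 values were called (the largest adjusted p was 0.0320). The remaining probe sets, 209554_at (4.47 to 5.05) and 242197_x_at (3.35 to 3.85), stayed near or below the signal limit on all arrays. For 209554_at the ATRA arrays still lay above the DMSO arrays of the same cell type. Its means differed by 0.30 in EVI1 cells and 0.34 in vector cells and were not tested.

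**Figure D2:**
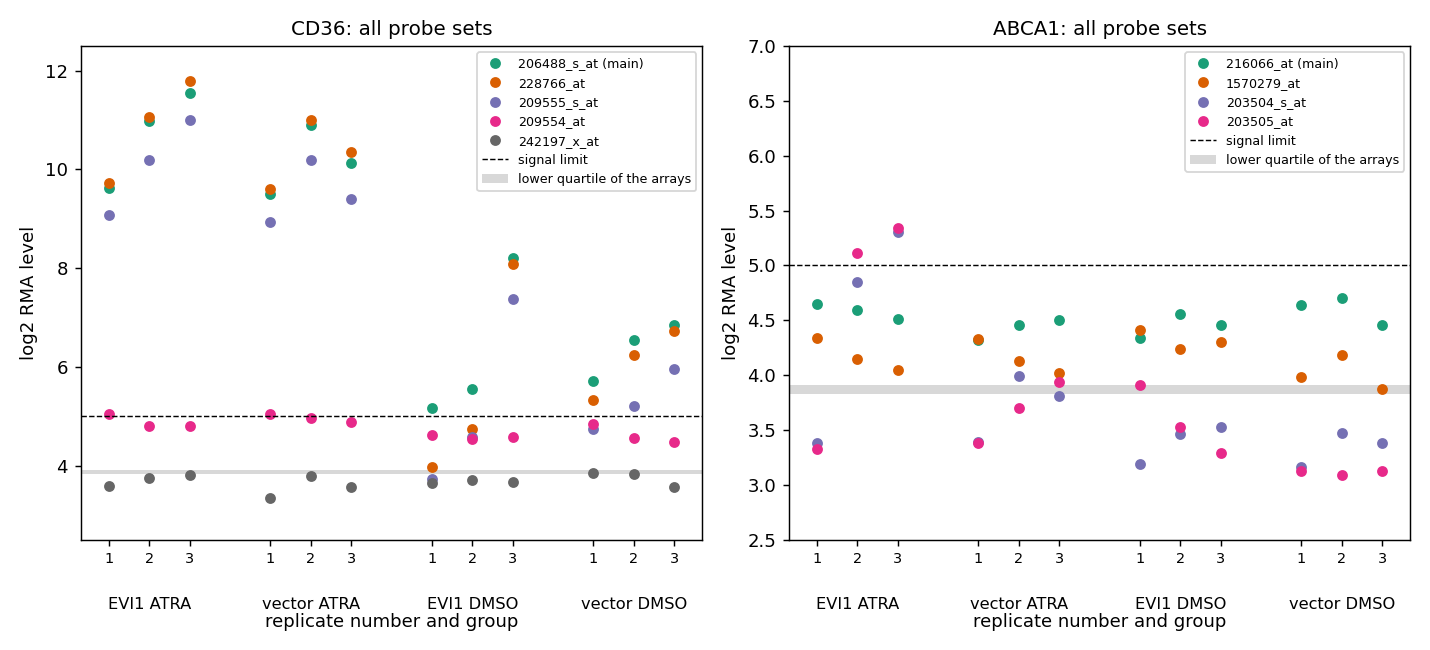
Log2 level (y axis) of every probe set of CD36 and of ABCA1 on each array, by group and replicate number (x axis), with the signal limit of 5 dashed and the arrays' lower quartiles as a grey band. The 3 CD36 probe sets that pass the limit move together, while for ABCA1 EVI1 ATRA replicates 2 and 3 alone reach above 5, on 203505_at (5.11 and 5.34) and, for replicate 3, on 203504_s_at (5.30).

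PPARG, the fatty acid receptor, was read by the single probe set 208510_s_at and differed between EVI1 and vector cells. It had 9.06, 8.99 and 9.01 in EVI1 ATRA against 8.69, 8.46 and 8.54 in vector ATRA, and 8.85, 8.96 and 8.85 in EVI1 DMSO against 8.49, 8.54 and 8.60 in vector DMSO. All 6 EVI1 arrays lay above all 6 vector arrays. The difference under ATRA was 0.46 ± 0.09 (limma adjusted p = 0.0161, or 0.00314 with the replicate block). Under DMSO it was 0.34 ± 0.09, with a limma adjusted p of 0.117, or 0.0270 with the replicate number as a block. ATRA against DMSO gave 0.13 ± 0.09 in EVI1 cells and 0.02 ± 0.09 in vector cells, neither of them called (95% intervals -0.07 to 0.34 and -0.18 to 0.22). The call under ATRA was lost without EVI1 ATRA replicate 3, vector ATRA replicate 2 or vector ATRA replicate 3 (adjusted p = 0.0571, 0.0688 and 0.0647).

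NR1H3, the oxysterol receptor, was read by the single probe set 203920_at and was highest where EVI1 and ATRA came together. It had 7.49, 8.66 and 8.55 in EVI1 ATRA, 6.91, 7.30 and 7.11 in vector ATRA, 6.14, 6.69 and 6.89 in EVI1 DMSO, and 6.36, 6.36 and 6.44 in vector DMSO. The EVI1 ATRA arrays lay above all others, and the DMSO groups overlapped. In order of their means the groups ran EVI1 ATRA, vector ATRA, EVI1 DMSO and vector DMSO, the last 2 of which did not differ beyond their spread. The ATRA effect was 1.66 ± 0.27 in EVI1 cells (limma adjusted p = 0.00310, or 1.437e-04 with the replicate block). In vector cells it was 0.72 ± 0.27, with a limma adjusted p of 0.187, or 0.0230 with the replicate block and 0.0402 without EVI1 ATRA replicate 1. EVI1 cells exceeded vector cells by 1.13 ± 0.27 under ATRA (limma adjusted p = 0.0346, or 0.00258 with the replicate block). Under DMSO they did so by 0.19 ± 0.27, and the test was not passed.

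The ATRA effect on NR1H3 was thus 0.94 ± 0.39 larger in EVI1 cells than in vector cells, and larger in each of the 3 replicate pairs (0.80, 1.03 and 0.99). The limma p was 0.0316 before adjustment and 0.998 after adjustment over all genes, so a difference between the cell types was not shown. The rise with ATRA in EVI1 cells was called under all 22 other settings tried, where the difference ranged from 1.44 to 2.03. The difference between the cell types under ATRA was not called without either of EVI1 ATRA replicates 2 and 3 (adjusted p = 0.124 and 0.151), without any 1 of the vector ATRA arrays (0.114, 0.0686 and 0.101), or without any 1 of the vector DMSO arrays (0.0503 to 0.0534).

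ABCA1 and ABCG1, the cholesterol exporters, were both close to the floor of the arrays. The representative probe set of ABCA1, 216066_at, lay between 4.32 and 4.70 on all arrays, under the limit of 5 on at least 3 arrays, so ABCA1 was not tested and 7 of the 8 members were. A second probe set, 203505_at, had 3.33, 5.11 and 5.34 in EVI1 ATRA, 3.38, 3.70 and 3.94 in vector ATRA, 3.91, 3.53 and 3.29 in EVI1 DMSO, and 3.13, 3.09 and 3.13 in vector DMSO. For 203504_s_at the values were 3.38, 4.85 and 5.30 in EVI1 ATRA, 3.39, 3.99 and 3.81 in vector ATRA, 3.19, 3.46 and 3.53 in EVI1 DMSO, and 3.16, 3.47 and 3.38 in vector DMSO. In both, EVI1 ATRA replicates 2 and 3 were above every other array while replicate 1 was not, and most other values were at or under the arrays' lower quartiles (3.83 to 3.91). Under this limit they give no test, and the fourth probe set, 1570279_at, lay between 3.87 and 4.41.

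ABCG1, by its representative probe set 211113_s_at, had 5.01, 4.91 and 4.54 in EVI1 ATRA, 5.06, 5.40 and 5.05 in vector ATRA, 5.26, 5.04 and 4.82 in EVI1 DMSO, and 5.06, 5.29 and 4.83 in vector DMSO. All EVI1 ATRA arrays were below all vector ATRA arrays, and the difference of -0.35 ± 0.17 did not pass the test (limma adjusted p = 0.269, or 0.0384 with the replicate block). ATRA changed it by -0.22 ± 0.17 in EVI1 cells and 0.11 ± 0.17 in vector cells, neither of them called. A further probe set, 204567_s_at, had 3.44, 4.44 and 3.51 in EVI1 ATRA, 4.01, 5.52 and 3.97 in vector ATRA, 3.55, 3.92 and 3.75 in EVI1 DMSO, and 4.17, 5.23 and 4.10 in vector DMSO. Replicate 2 was the highest of every group, and under DMSO the EVI1 arrays lay below the vector arrays. This probe set did not pass the signal limit and was not tested. The others, 230913_at and 232081_at, did not leave the lower quartile on any array.

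PLIN2, the droplet coat protein, had 9.93, 10.26 and 11 in EVI1 ATRA against 9.61, 9.45 and 9.72 in EVI1 DMSO. In vector ATRA it had 9.97, 10.35 and 10.72, against 9.67, 9.63 and 9.80 in vector DMSO. The ATRA arrays lay above the DMSO arrays in both cell types, and the DMSO arrays were close together. The ATRA effect was 0.80 ± 0.24 in EVI1 cells (limma adjusted p = 0.0438, or 0.00346 with the replicate block). In vector cells it was 0.65 ± 0.24, with a limma adjusted p of 0.182, or 0.0209 with the replicate block. By replicate number the effect was 0.32, 0.81 and 1.28 in EVI1 cells and 0.30, 0.72 and 0.92 in vector cells. EVI1 and vector cells differed by 0.05 ± 0.24 under ATRA (95% interval -0.48 to 0.58). The call in EVI1 cells was lost under 12 of 22 other settings, with an adjusted p of 0.0817 without EVI1 ATRA replicate 2 and 0.163 without replicate 3. It was 0.107, 0.130 and 0.0619 without EVI1 DMSO replicates 1, 2 and 3, 0.0607 without vector ATRA replicate 2, and 0.0578 to 0.0607 without any 1 vector DMSO array. A second probe set, 215895_x_at, stayed between 4.14 and 4.54.

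FABP4, the fatty acid binding protein of adipocytes and macrophages, had 6.02, 8.33 and 8.32 in EVI1 ATRA against 4.87, 6.02 and 6.07 in vector ATRA. Under DMSO it had 5.83, 6.13 and 6.36 in EVI1 cells against 4.92, 5.06 and 5.31 in vector cells. The EVI1 arrays lay above the vector arrays under DMSO, and above the vector array of the same number under ATRA, where EVI1 ATRA replicate 1 stood far below replicates 2 and 3. EVI1 cells exceeded vector cells by 1.90 ± 0.52 under ATRA (limma adjusted p = 0.0546, or 0.00384 with the replicate block) and by 1.01 ± 0.52 under DMSO (limma adjusted p = 0.589, or 0.115 with the block). The ATRA effect was 1.45 ± 0.52 in EVI1 cells (limma adjusted p = 0.0821, or 0.00771 with the block) and 0.56 ± 0.52 in vector cells (limma adjusted p = 0.666). Without EVI1 ATRA replicate 1 the difference between cell types under ATRA was 2.67 (limma adjusted p = 8.189e-04) and the ATRA effect in EVI1 cells 2.22 (limma adjusted p = 9.705e-04). A second probe set, 235978_at, lay between 2.58 and 3.22.

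FABP5, a fatty acid binding protein found in many cell types, was read by the single probe set 202345_s_at near the top of the scale, where array signals compress. It had 13.02, 13.03 and 12.91 in EVI1 ATRA, 13.20, 13.47 and 13.38 in vector ATRA, 13.30, 13.18 and 13.15 in EVI1 DMSO, and 13.29, 13.27 and 13.28 in vector DMSO. The EVI1 ATRA arrays were the lowest of all 12. Their difference from the vector ATRA arrays, -0.36 ± 0.10, missed the threshold (limma adjusted p = 0.0506, or 0.0112 with the replicate block). FABP5 has near-identical copies in the genome, and its probe set may read several of them. The difference under ATRA was called under 9 of 22 other settings, over which the limma adjusted p ranged from 0.00526 to 0.195. Among the 9 were the fits without EVI1 ATRA replicate 1 (limma adjusted p = 0.0432) or vector ATRA replicate 1 (0.0435).

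**Figure D3:**
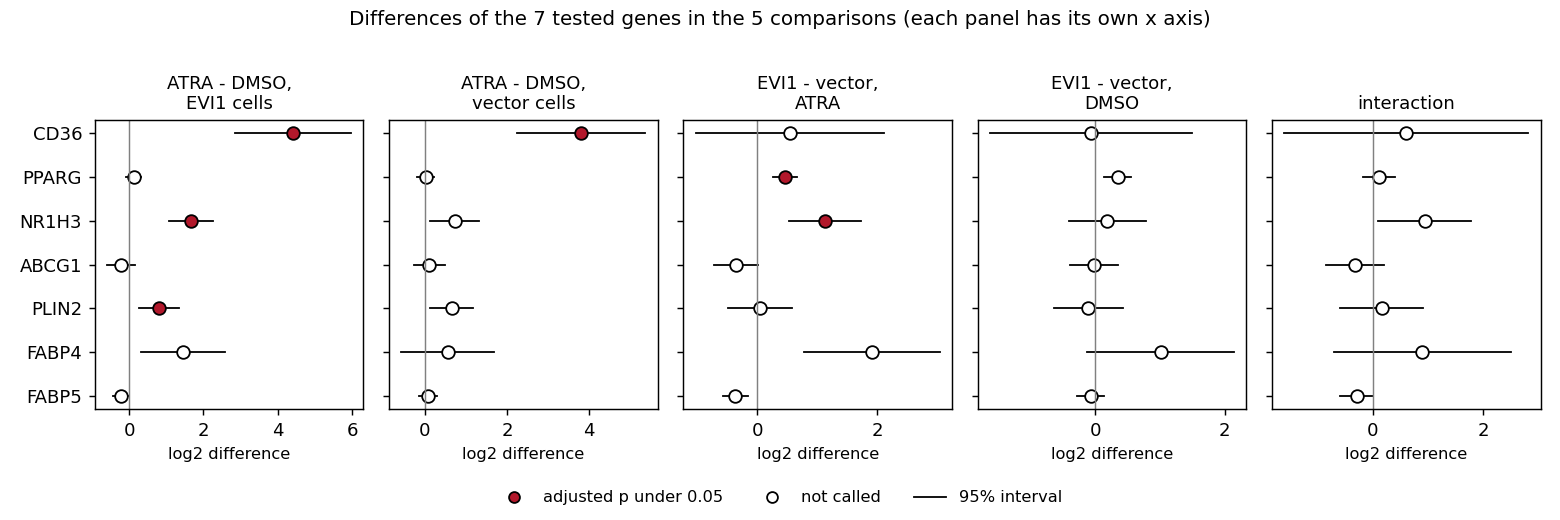
Log2 difference with its 95% interval (x axis) of the 7 tested members in the 5 comparisons, with filled points for adjusted p under 0.05. CD36 has the largest ATRA effect in both cell types (4.41 in EVI1 cells and 3.81 in vector cells) and the widest intervals, and PPARG the narrow ones, called for EVI1 against vector under ATRA (0.46).

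The members were chosen with earlier results of these data known, so the shares below describe them and give no test of the set. Set beside all tested genes, 3 of 7 members were called with ATRA in EVI1 cells, all of them higher, where 15.1% of 14080 genes were called and 7.45% were called higher. In vector cells 1 of 7 was called, where 3.52% were called and 2.00% were called higher. With the replicate block these counts were 4 of 7 in EVI1 cells and 3 of 7 in vector cells, against 35.7% and 20.0% of all genes. The ATRA comparisons of both cell types set separate arrays against each other, but every comparison used the same estimate of the spread from all 12 arrays. Their calls are therefore not independent, and each also shares its ATRA or DMSO arrays with an EVI1 comparison. Under ATRA, 2 of 7 members were called higher in EVI1 cells than in vector cells, where 5.61% of genes were called and 3.28% higher. With the block 5 of 7 were called, against 25.3% of genes. Under DMSO limma called 0 of 7 members, where 1.21% of genes were called and 9.79% had an unadjusted p under 0.05. PPARG was the member with an unadjusted p under 0.05 there, and with the block it was called, as were 7.19% of genes. The interaction called 0 of 7 members and 0 of 14080 genes in limma, with 2.57% of genes at an unadjusted p under 0.05 (NR1H3 among them) and 0 with the block. The median difference of the 7 was 0.80 for ATRA in EVI1 cells, 0.56 for ATRA in vector cells, 0.46 for EVI1 under ATRA and -0.02 for EVI1 under DMSO, where the medians of all genes were -0.02, -0.00, -0.01 and 0.02.

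Of 19 further scavenger receptors and uptake genes, 13 were tested, and with ATRA 2 were called in EVI1 cells, both lower. Over all genes 15.1% were called there, and the count of this list is near that share. In EVI1 cells SCARB1, the receptor for high-density lipoprotein, fell by 0.64 on the log2 scale (limma adjusted p = 0.0473) and the fatty acid transporter SLC27A4 fell by 0.67 (limma adjusted p = 0.0162). In vector cells limma called 0 of the 13 (4 at an unadjusted p under 0.05), where 3.52% of all genes were called. With the replicate block 6 were called in EVI1 cells (3 higher, 3 lower) and 5 in vector cells (1 higher, 4 lower), where 35.7% and 20.0% of all genes were. CXCL16, a scavenger receptor for oxidised lipoprotein, was called higher in both with the block, at 0.63 in EVI1 cells (blocked adjusted p = 0.00577) and 0.71 in vector cells (0.00688). Without the block, leaving out 1 array gave 0 to 4 calls in EVI1 cells, 0 of them without EVI1 ATRA replicate 3 or EVI1 DMSO replicate 2. SCARB1 had 9.54, 9.11 and 8.99 in EVI1 ATRA against 10.20, 9.68 and 9.67 in EVI1 DMSO, with no overlap. Under ATRA, ACSL1, which activates fatty acids as CoA esters, was 0.75 higher in EVI1 cells than in vector cells (limma adjusted p = 0.0212), and the transporter SLC27A1 was 0.44 higher (limma adjusted p = 0.0349). These were 2 of 13, where 5.61% of all genes were called, and the count became 0 without EVI1 ATRA replicate 2 or 3, or vector ATRA replicate 1 or 3. SLC27A1 was also 0.38 higher in EVI1 cells under DMSO (limma adjusted p = 0.138, or 0.0303 with the block). The median of the list was 0.04 for ATRA in EVI1 cells and -0.05 in vector cells, beside -0.02 and -0.00 over all genes.

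Among sterol handling and efflux genes other than ABCA1 and ABCG1, 4 rose with ATRA in EVI1 cells and 2 in vector cells. Over all genes 15.1% were called in EVI1 cells (7.45% higher) and 3.52% in vector cells (2.00% higher). Of 21 listed, 17 were tested, and with ATRA 15 of 17 differences were positive in EVI1 cells (median 0.45, against -0.02 for all genes) and 13 of 17 in vector cells (median 0.21, against -0.00). The 4 that rose in EVI1 cells were SMPDL3A, an LXR target that cleaves nucleotides, by 1.25 (limma adjusted p = 0.0317), the lysosomal cholesterol carrier NPC2 by 0.70 (0.00840), the ABC transporter ABCA7 by 0.48 (0.0180) and the lysosomal lipase LIPA by 0.45 (0.0432). In vector cells NPC2 rose by 0.73 (limma adjusted p = 0.0210) and ABCA7 by 0.55 (0.0286). Both vector calls were lost without any 1 vector ATRA array or without vector DMSO replicate 1 or 2, and the count was 1 without vector DMSO replicate 3. In EVI1 cells the count was 1 without EVI1 ATRA replicate 2 or EVI1 DMSO replicate 1, 2 without EVI1 DMSO replicate 2, and 9 without EVI1 ATRA replicate 1. NPC2 had 12, 12.47 and 12.32 in EVI1 ATRA, 11.74, 11.88 and 11.64 in vector ATRA, 11.31, 11.70 and 11.67 in EVI1 DMSO, and 10.96, 10.96 and 11.14 in vector DMSO. Its ATRA and DMSO arrays did not overlap in either cell type. With the replicate block 12 of 17 were called in EVI1 cells (11 higher, 1 lower) and 4 in vector cells, all higher, where 35.7% and 20.0% of all genes were called. Under ATRA, NPC1, which hands cholesterol out of the lysosome with NPC2, was 0.75 higher in EVI1 cells than in vector cells (limma adjusted p = 0.0173), a call lost without EVI1 ATRA replicate 2 or 3, or vector ATRA replicate 2 or 3. With the block 6 of 17 were called there, all higher, where 25.3% of all genes were called in either direction. Under DMSO, too, NPC1 was 0.58 higher in EVI1 cells (limma adjusted p = 0.115, or 0.0282 with the block). NPC2 was 0.54 higher under DMSO (limma adjusted p = 0.113, or 0.0134 with the block).

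Among partners of PPARG and genes of fatty acid oxidation, 17 of 22 were tested. With ATRA in EVI1 cells 3 of 17 were called, where 15.1% of all genes were, and all 3 rose: the mitochondrial carnitine carrier SLC25A20 by 1.3 (limma adjusted p = 0.0126), PPARA by 0.70 (0.0271) and PPARD by 0.54 (0.0115), both of them fatty acid receptors of the PPARG family. In vector cells limma called 0 of the 17 (5 at an unadjusted p under 0.05), where 3.52% of all genes were called. With the replicate block 7 were called in EVI1 cells (4 higher, 3 lower) and 7 in vector cells (5 higher, 2 lower), where 35.7% and 20.0% of all genes were. The 3 lower in EVI1 cells with the block were CPT1A, which loads fatty acids for mitochondrial import, at -0.66 (blocked adjusted p = 9.569e-04), the retinoid X receptor RXRA at -0.32 (0.0140) and the coactivator PPARGC1B at -0.25 (0.0205). Without EVI1 ATRA replicate 2 or EVI1 DMSO replicate 2, 1 of the 17 was called in EVI1 cells without the block. PPARD was also 0.67 higher in EVI1 than in vector cells under ATRA (limma adjusted p = 0.00906), with 11.21, 11.60 and 11.48 against 10.78, 10.73 and 10.78. The list's median was 0.16 for ATRA in EVI1 cells and 0.17 in vector cells. SLC25A20 had 8.33, 8.55 and 9.76 in EVI1 ATRA against 7.51, 7.41 and 7.83 in EVI1 DMSO, with replicate 3 the highest in both groups.

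Lipid droplet genes changed in both directions beside PLIN2. Of 19 listed, 17 were tested, and with ATRA in EVI1 cells 4 rose and 2 fell, where 15.1% of all genes were called. The acyltransferase GPAT3, which starts triglyceride synthesis, rose by 1.62 (limma adjusted p = 0.0107), the monoglyceride lipase MGLL by 1.41 (0.00247), the droplet protein CIDEB by 0.86 (0.00912) and PLIN4 by 0.52 (0.0326). The hypoxia-induced lipase inhibitor HILPDA fell by 1.00 (limma adjusted p = 0.00175) and DGAT2, which makes triglyceride, fell by 0.68 (0.00489). In vector cells 1 of 17 was called, MGLL at 1.14 (limma adjusted p = 0.0192), where 3.52% of all genes were. The count was 0 without vector ATRA replicate 2 or 3, or vector DMSO replicate 1 or 2. With the replicate block 8 were called in EVI1 cells (6 higher, 2 lower) and 4 in vector cells (MGLL and CIDEB higher, HILPDA and DGAT2 lower). Of all genes, 35.7% and 20.0% were called with the block. MGLL had 11.07, 11.27 and 11.99 in EVI1 ATRA, 10.49, 10.87 and 10.94 in vector ATRA, 10.06, 9.74 and 10.30 in EVI1 DMSO, and 9.65, 9.58 and 9.64 in vector DMSO. Under ATRA GPAT3 was 1.67 higher in EVI1 than in vector cells (limma adjusted p = 0.0185) and HILPDA differed by -0.56 (0.0465). Both were lost without vector ATRA replicate 1 or 3, and with the block 6 of 17 were called (4 higher, 2 lower). Of all genes, 5.61% were called in this comparison, or 25.3% with the block. The list's median was -0.01 for ATRA in EVI1 cells and 0.00 in vector cells.

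Of 12 further intracellular lipid binding proteins, 5 were tested, and 1 was called with ATRA in EVI1 cells, where 15.1% of all genes were. FABP6, known as the bile acid binding protein of the ileum, rose by 2.13 with ATRA in EVI1 cells (limma adjusted p = 0.0125), a call lost without EVI1 DMSO replicate 1. In vector cells its difference was 1.77 (limma adjusted p = 0.0689, or 0.00175 with the block). It had 6.30, 8.46 and 6.57 in EVI1 ATRA, 7.16, 8.07 and 7.25 in vector ATRA, 4.70, 5.59 and 4.64 in EVI1 DMSO, and 5.48, 5.96 and 5.73 in vector DMSO. Replicate 2 was the highest of every group. Under DMSO, EVI1 against vector, none of the 69 tested genes of these 5 lists was called in limma (6 at an unadjusted p under 0.05), or 5 with the block. Over all genes 1.21% were called, 9.79% had an unadjusted p under 0.05 and 7.19% were called with the block. The list counts with the block and at an unadjusted p were thus near the shares of all genes. The 5 called with the block were NPC1, NPC2, SLC27A1, RXRA and LPIN1, all higher in EVI1 cells. The listed genes with mean levels of 11 or more were SCD (11.91), NPC2 (11.65), UCP2 (11.41), HADHA (11.52), HADHB (11.94) and DBI (13.23), and NPC2 was the one called among them.

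**Figure D4:**
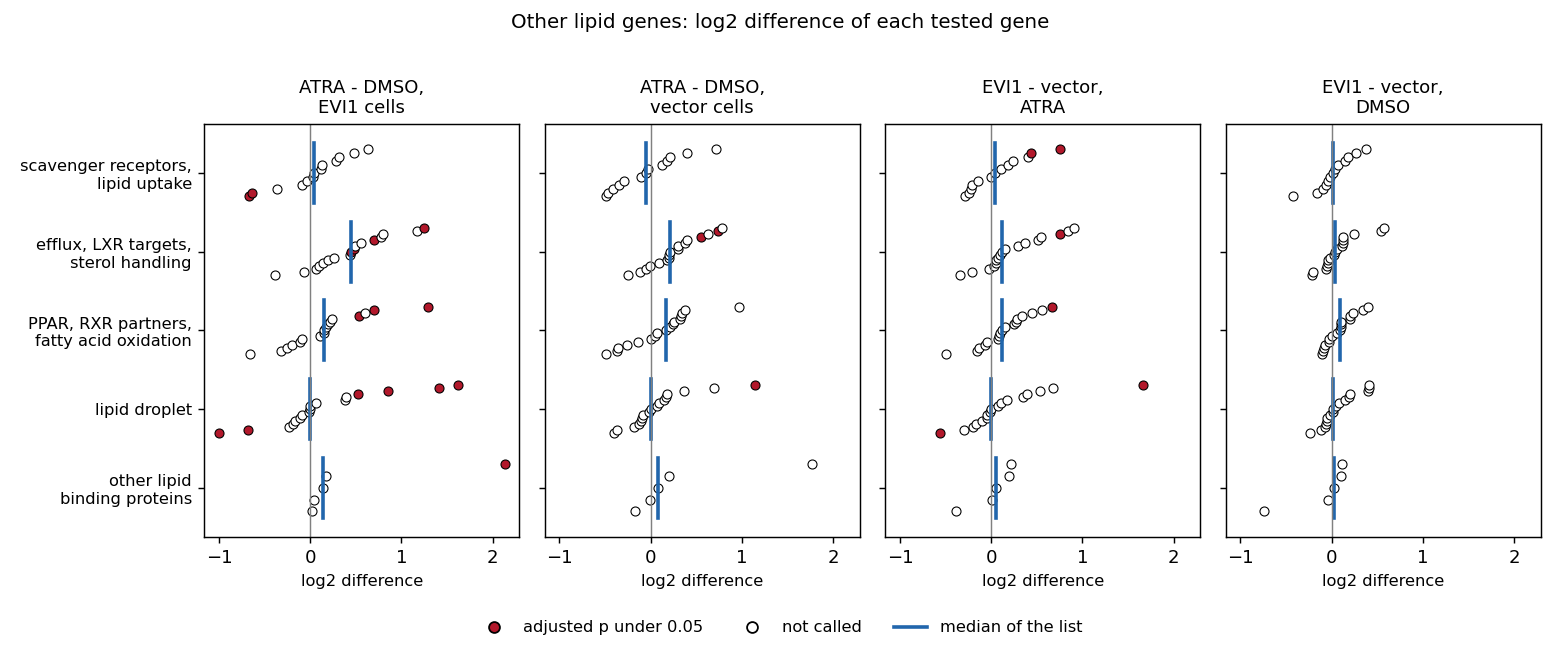
Log2 difference of each tested gene (points) of the 5 lists of lipid genes, for ATRA against DMSO and for EVI1 against vector, with called genes filled and the list's median as a blue line. The sterol handling list has a median of 0.45 for ATRA in EVI1 cells and 0.21 in vector cells, and the uptake list lies around 0.

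The genes whose levels over the 12 arrays were most like those of CD36 were LBR (Pearson r = 0.986), a nuclear envelope protein, PLAAT4 (0.982), a retinoid-induced phospholipase, the integrin subunit ITGAM (0.982), the transcription factor RUNX2 (0.982) and the chemokine receptor CCR1 (0.981), among 14079 genes. The most opposed were SLC39A14 (-0.982), ENOPH1 (-0.982) and CDR2 (-0.980). The points share the split into ATRA and DMSO arrays and the replicate numbers. Among the members, PLIN2 (0.857), NR1H3 (0.855) and FABP4 (0.609) were more like CD36 than were PPARG (0.181), ABCG1 (-0.311) and FABP5 (-0.324). NR1H3 and FABP4 correlated at 0.886 over the 12 arrays. EVI1 ATRA replicate 1 and vector ATRA replicate 1 were each the lowest of their group for CD36, NR1H3, PLIN2 and FABP4.

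Markers of other cell types that could express CD36 or FABP4 were set beside these values. The mean level of 6 megakaryocyte and platelet markers was 5.06 to 5.19 in EVI1 ATRA, 5.07 to 5.16 in vector ATRA, 5.07 to 5.16 in EVI1 DMSO and 5.09 to 5.33 in vector DMSO, with 4 of 6 above the signal limit and PPBP and TUBB1 under it. For the 4 of 6 erythroid markers named alone, all above the limit, it was 5.39 to 5.66 in EVI1 ATRA, 5.33 to 5.70 in vector ATRA, 5.52 to 5.56 in EVI1 DMSO and 5.52 to 5.77 in vector DMSO. Adipocyte markers, known beside FABP4 in fat, averaged 4.98 to 5.07 in EVI1 ATRA, 4.91 to 4.97 in vector ATRA, 4.89 to 4.93 in EVI1 DMSO and 4.82 to 5.07 in vector DMSO, with 4 of 6 above the limit and ADIPOQ (2.76 to 3.18) and LEP (3.99 to 4.76) below it. Endothelial markers averaged 4.36 to 4.40 in EVI1 ATRA, 4.36 to 4.40 in vector ATRA, 4.33 to 4.55 in EVI1 DMSO and 4.27 to 4.52 in vector DMSO, with 3 of 6 above the limit and CDH5, KDR and TIE1 below it. Of all tested megakaryocyte, erythroid, adipocyte and endothelial markers, PLIN4 was called with ATRA in EVI1 cells. With the replicate block the adipocyte marker CIDEC was also called there (0.40, blocked adjusted p = 0.0101). PLIN4 was then also called 0.53 higher in EVI1 than in vector cells under ATRA (blocked adjusted p = 0.0221). The remaining erythroid, platelet and endothelial markers above the limit were not called in any comparison, except ESAM with the replicate block (-0.42 with ATRA in EVI1 cells, blocked adjusted p = 0.0290), and their part in the members' values was not tested.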

How the data were processed

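Expression of 12 arrays of transduced U937 cells (3 in each of 4 groups) was read from 1 table. The values are log2 levels made by the authors with RMA (Affymetrix Expression Console 1.3), as the submitters' processing notes and the deposited table give them; the settings are not given in the sources used here. Of 54675 probe sets, 42898 were named by the platform annotation, 1801 of them with several symbols and left out, and 11777 were not listed. Array medians were 5.29 to 5.35, so no scaling was added. Genes needed a log2 level of 5 on 3 arrays. Group means were fitted with limma 3.58.1 in R 4.3.3 (8 residual degrees of freedom), with p-values adjusted over 14080 genes by Benjamini and Hochberg and called under 0.05. The script was tested on simulated data. Deviations of same-numbered arrays from their group means correlated at 0.453 to 0.704 in all 12 pairs, so the labels' replicate numbers were taken to pair the arrays. The fit without them is the one described unless the replicate block is named. Its p-values set each difference against a spread between arrays that still holds what same-numbered arrays share. The replicate block fits that shared part separately. For the ATRA effect on CD36 the SE was 0.72 without the block and 0.47 with it. Genes named are the members, list genes called (at most 4 a direction) or at a mean level of 11 or more, and the 5 genes most and 3 least like CD36. The members and lists were chosen with earlier results of these data known. The number of arrays limits the precision.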

Additional observations from a re-analysis of the deposited data

How the results depend on the processing

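The number of members called depended on the setting, and no difference of a member changed direction after a call. With ATRA in vector cells it was 1 of 7, or 3 with the replicate block and with array weights, 2 without all number 1 arrays (NR1H3 and FABP4, with CD36 lost at an adjusted p of 0.0613), and 0 to 2 when 1 array was left out. With ATRA in EVI1 cells it was 3, and 2 to 4 when 1 array was left out. Under DMSO, EVI1 against vector, it was 0, or 1 with the replicate block, with array weights and without all number 1 arrays, and 0 when any 1 array was left out. Under ATRA, EVI1 against vector, it was 2, or 5 with the replicate block, 4 with a limit of 6, with a trended and robust variance, with array weights and without all number 1 arrays, 1 without both number 3 DMSO arrays, and 0 to 4 when 1 array was left out. The interaction called 0 members throughout.

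Over all genes, the replicate block called 5023 with ATRA in EVI1 cells, 2818 with ATRA in vector cells, 1013 for EVI1 under DMSO and 3559 for EVI1 under ATRA, where the fit without it called 2127, 496, 171 and 790. Array weights called 3888, 1387, 382 and 2761. Leaving out 1 array gave 895 to 3229, 71 to 633, 77 to 190 and 262 to 1957. Of 750 values of members under other settings, 691 stayed on their side of the threshold, 29 lost a call and 30 gained one. Calls gained or lost with the block stand beside the members in the text, and the block changed no other call of a member. Of 550 list counts, 440 stayed within 1.5 times. The cause of the differences was not tested. Choosing each gene's probe set by its largest SD, and leaving out all number 1 arrays, were added after the data were seen. The number of arrays, and signals near the floor for ABCA1 and ABCG1, limit what could be called.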
